A study of Mus musculus with 18 samples.

Results

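Whole mouse testis at E12.5 was compared with whole testis at E15.5, on 6 of the 18 arrays of a developmental series. The members were chosen by their titles, which number 3 arrays at each of these 2 stages, and the remaining 12 arrays (3 each at P7, P14, P21 and adult) were used to follow the changed probes. Stages beginning with E are days of embryonic development and stages beginning with P are days after birth, and the labels name the adult without an age. Each array held total RNA of whole testis that was depleted of ribosomal RNA and copied with the dye Cy3. No strain, genotype or treatment is named for any group, and no label says that replicates came from separate animals, litters or pools, so p-values measure only the spread between these arrays, which may be technical.

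In the mouse, testis cords have recently formed by E12.5, and the germ cells inside them still divide. Over the following days these cells, then called gonocytes or prospermatogonia, stop in the cell cycle and stay arrested until after birth, while Sertoli cells around them keep dividing and fetal Leydig cells make androgens. A whole testis mixes all of these cells, so a lower signal from fewer cells of a type and from less RNA per cell cannot be told apart.

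The values are the authors' signals for 37820 probes, taken as log2 from their range, so a difference of 1 is a 2-fold change. The files do not pair probes with genes, and a search of the gene tables at hand found 0 of the 37820 identifiers. Probes are therefore given by identifier, and neither the tissue label nor the arrest of germ cells was checked against marker genes. A probe was called when its change was at least 2-fold and its adjusted p in limma was below 0.05, with Benjamini-Hochberg adjustment over all probes.

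The E12.5 arrays did not form a single group. Replicates 1 and 3 differed by 2-fold or more at 219 probes (0.579%), whereas replicate 2 differed from replicate 1 by that much at 9805 probes (25.9%) and from replicate 3 at 10078 (26.6%). Pairs of E15.5 arrays differed by 2-fold or more at 891 to 2735 probes. Between stages, replicate 2 differed from the E15.5 arrays at 5825 to 7062 probes, and replicates 1 and 3 differed from them at 12443 to 13068. Replicate 2 was thus closer to every E15.5 array than to the other arrays of its own stage. Its mean distance from a stage mean was 0.56 for E15.5, 0.62 for P7 and 0.95 for P14 (log2, absolute difference averaged over probes), and that of replicate 1 was 0.94, 0.84 and 0.97. Array medians over all probes ran only from 7.90 to 7.98 within these 2 stages. The main counts are given with and without E12.5 replicate 2, and a value with no such mention is from the fit of 18 arrays. Without it the E12.5 level rests on the closely matching pair of replicates 1 and 3, so that the spread within the stage may be understated.

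Between E12.5 and E15.5, 4025 probes rose and 3577 fell in the fit of all 18 arrays, 10.6% and 9.46% of all probes (limma). Without E12.5 replicate 2 the numbers were 5770 and 5010, or 15.3% and 13.2%. Without replicate 1 they were 2943 and 2125, and without replicate 3 2981 and 2138, so that with replicate 2 as 1 of 2 arrays fewer falls were called. Both fits called the same direction for 7368 probes, 3914 rises and 3454 falls, and no probe was called in opposite directions. The shared probes made up 97.2% of the rises and 96.6% of the falls called with replicate 2, and 67.8% and 68.9% of those called without it. The fits share 17 arrays, so this overlap is not an independent repeat. The median change of all probes was 0.12 with replicate 2 and 0.24 without it, and 0.06 with replicate 2 after the values were quantile normalized again. Each fit takes 1 spread per probe from all 6 stages, which may be too small for E12.5 with replicate 2 in it. With only the 6 arrays of E12.5 and E15.5 fitted, 3395 probes rose and 2175 fell.

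The probes that only the fit without replicate 2 called were smaller changes. They numbered 1856 rises, with a median of 1.18 in that fit and 0.85 in the fit of 18 arrays, and 1556 falls, with medians of −1.50 and −0.98 (log2). Among the shared probes the median rise was 1.61 with replicate 2 and 1.89 without it, and the median fall was −1.93 and −2.40. Conversely, 111 rises and 123 falls were called only in the fit of 18 arrays.

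The balance of rises and falls among large changes depended on which E12.5 arrays were fitted. Rises numbered 2787 between 2-fold and 4-fold, 810 between 4-fold and 8-fold and 428 beyond 8-fold (1.13% of all probes). Falls numbered 1951, 986 and 640 in these ranges, the last 1.69% of all probes. Changes beyond 8-fold without replicate 2 were 599 rises (1.58%) and 1286 falls (3.4%). Without replicate 1 they were 367 rises and 362 falls, and without replicate 3 369 and 370, nearly equal numbers. They were also nearly or wholly equal with the 6 arrays fitted alone (425 rises, 413 falls), with replicates 1 and 3 averaged (367 and 365) or with limma's treat (421 and 421). The largest rise was 7.31 and the largest fall −8.05 on the log2 scale, and −9.24 for a fall without replicate 2.

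The values of the 3 E12.5 and the 3 E15.5 arrays did not overlap for 38.4% of all probes, 21.9% with every E15.5 value higher and 16.5% with every E15.5 value lower. Among the 3914 rises called in both fits 3715 (94.9%) did not overlap, and among the 3454 falls 2924 (84.7%). These shares describe the same arrays that chose the probes and carry no test.

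Median signals over the called probes are given for each array. The E12.5 and E15.5 arrays, replicate 2 included, took part in choosing these probes, so the gap between the stages follows partly from that choice. For the 4025 rises the E12.5 arrays stood at 7.23, 8.08 and 7.22 for replicates 1, 2 and 3, and the E15.5 arrays at 9.54, 9.20 and 9.40. Replicate 2 lay above the other E12.5 arrays and below all 3 E15.5 arrays. For the 3577 falls the E12.5 arrays stood at 10.13, 8.31 and 10.12 and the E15.5 arrays at 7.35, 7.06 and 7.15. Here replicate 2 lay closer to E15.5 than to the other E12.5 arrays.

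**Figure D1:**
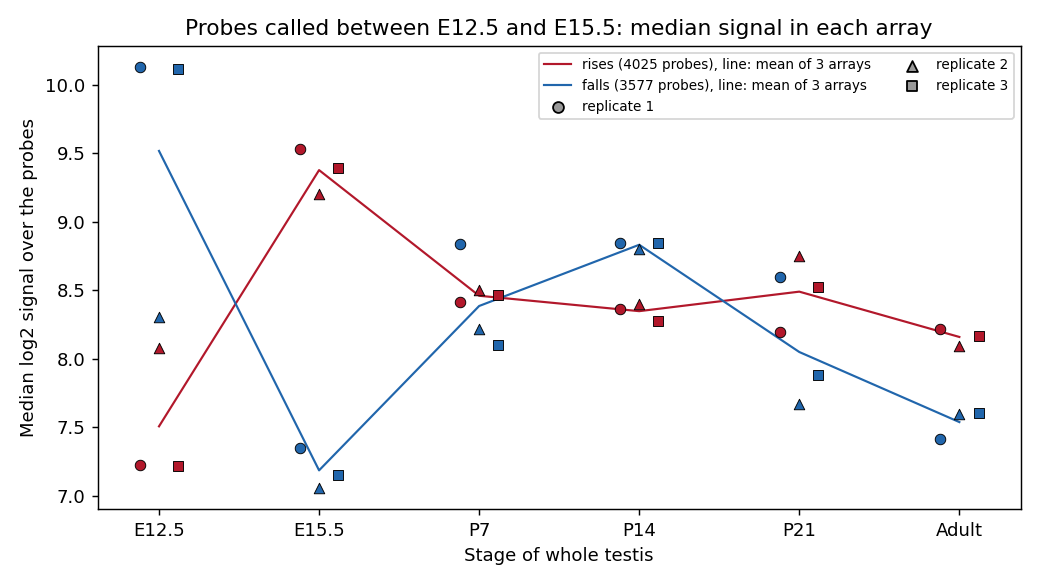
Median log2 signal (vertical axis) of the 4025 probes that rose and the 3577 that fell between E12.5 and E15.5, for each array at the 6 stages (horizontal axis). Symbols are replicates and lines join the mean of the 3 arrays of a stage. E12.5 replicate 2 stands at 8.08 for rises and 8.31 for falls, between the other E12.5 arrays and the E15.5 arrays. The E12.5 and E15.5 arrays shown, replicate 2 included, also took part in choosing the probes.

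The place of replicate 2 was then read at the probes called without it, a choice in which that array had no part. A probe with replicate 2 at the mean of replicates 1 and 3 was set at 0% of the way, and one with replicate 2 at the E15.5 mean at 100%. At the 5770 rises replicate 2 was a median of 56.3% of the way to E15.5, with the middle 50% of probes between 31.0% and 81.2%. At the 5010 falls it was 75% of the way, with the middle 50% between 51.1% and 95.4%. It was nearer to E15.5 at 3278 rises (56.8%) and 3791 falls (75.7%), and at or past the E15.5 mean at 754 rises (13.1%) and 1015 falls (20.3%). Replicate 2 was below the lowest E15.5 array at 4440 of the rises (76.9%) and above the highest at 3366 of the falls (67.2%), and so still on the E12.5 side of the E15.5 range at most of both.

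Steep rises and steep falls differed most in this respect. Among the 599 rises of at least 8-fold, replicate 2 was 27.7% of the way, and it was nearer to E15.5 at 95 (15.9%). The median signal of these probes was 6.31 in replicates 1 and 3, 7.25 in replicate 2 and 10.28 at E15.5. Among the 1286 falls of at least 8-fold it was 76.0% of the way, and nearer to E15.5 at 1047 (81.4%), with median signals of 10.60, 7.32 and 6.20. Among changes of 2-fold to 4-fold the directions were closer, with replicate 2 nearer to E15.5 at 2613 of 3964 rises (65.9%) and 1686 of 2398 falls (70.3%). With 1 array these shares have no replicate error and no test. At most of the steep falls replicate 2 was therefore nearer to E15.5 than to replicates 1 and 3, though its median of 7.32 stayed above E15.5. At most of the steep rises it was nearer to replicates 1 and 3.

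**Figure D2:**
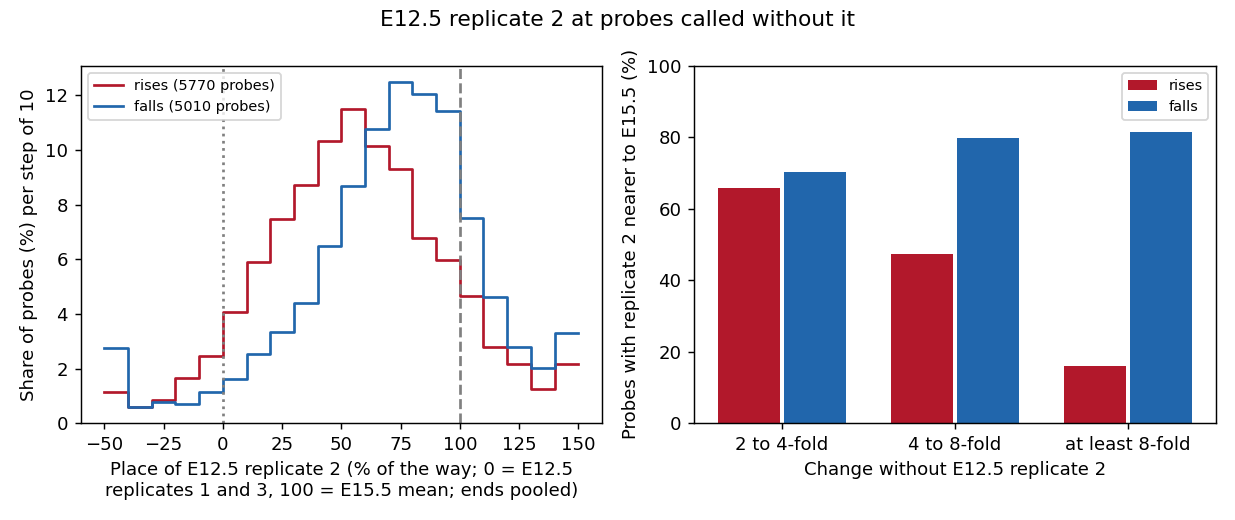
Left, share of probes (vertical axis, percent per step of 10) by the place of E12.5 replicate 2 between replicates 1 and 3 (0%) and the E15.5 mean (100%), for 5770 rises and 5010 falls called without it, with values beyond the ends of the axis pooled in the end steps. Right, share of those probes with replicate 2 nearer to E15.5 by size of change, 15.9% of rises and 81.4% of falls of at least 8-fold.

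Changed probes were next followed through the later stages. A probe was called back at the E12.5 level at a stage when the stage mean was within 1 (log2) of the E12.5 mean and differed from E15.5 in the opposite direction by the call rule above. It was called kept when the stage still differed from E12.5 in the direction of the first change by the same rule, and past E12.5 when it differed from E12.5 in the other direction. All other probes were neither. These states use the same E12.5 and E15.5 arrays that chose the probes, so the counts are a description and carry no test. Of the 30218 uncalled probes 85.3% were within 1 of their E12.5 mean at P7, and 43.9% in the adult. Of the rises 52.1% at P7 and 31.4% in the adult were within that distance, and of the falls 49.4% and 18.5%.

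By these rules more rises were kept than back at each later stage. At P7, 1219 of the 4025 rises (30.3%) were back, 1726 (42.9%) were kept and 1011 (25.1%) were neither. At P14 1383 (34.4%) were back and 1691 (42.0%) kept, at P21 1171 (29.1%) and 1832 (45.5%), and in the adult 991 (24.6%) and 1687 (41.9%). A rise counts as back only if the stage was also called lower than E15.5, which held for 8.23% of all probes at P7, 16.9% at P14, 24.6% at P21 and 33.8% for the adult. The order depended on that condition. With no such call required, 2098 rises at P7 and 1923 at P14 were within 1 of E12.5, more than were kept. At P21 and in the adult 1536 and 1263 were within that distance, fewer than were kept. The share kept stayed between 41.9% and 45.5% over the 4 stages. The share past E12.5 was 1.71% at P7 and 25.7% in the adult, below the 6.4% and 34.1% of all probes called lower than E12.5 at those stages. By comparison, 9.58% of all probes were called higher at P7 than at E12.5, and at P14, P21 and adult 14.5%, 20.6% and 23.9%.

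Without replicate 2, 1450 of the 5770 rises (25.1%) were back and 2812 (48.7%) kept at P7, against a background of 13.7% of all probes called higher at P7. At P14 1910 (33.1%) were back and 2481 (43.0%) kept (background 16.6%), at P21 1670 (28.9%) and 2720 (47.1%, background 22.8%), and in the adult 1453 (25.2%) and 2529 (43.8%, background 25.6%). The rates of all probes called lower than at E15.5 were 8.66%, 17.2%, 24.9% and 34.2% at these stages in that fit.

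The falls returned most at P14 and were mostly low again in the adult. At P7 896 of the 3577 falls (25%) were back and 1102 (30.8%) kept, with 1534 (42.9%) neither. At P14 1609 (45.0%) were back and 957 (26.8%) kept. The balance then turned, with 771 (21.6%) back and 1930 (54.0%) kept at P21, and 457 (12.8%) and 2386 (66.7%) in the adult. As for the rises, the order at P7 depended on the call against E15.5. Without that condition 1767 falls at P7 were within 1 of E12.5, more than were kept. In the fit without replicate 2, 1572 were within that distance at P7, fewer than the 3043 kept. Across all probes, 6.4%, 12.7%, 24.3% and 34.1% were called lower than E12.5 at P7, P14, P21 and adult, and 7.5%, 15.5%, 19.2% and 21.9% were called higher than E15.5. The median difference of the falls from E12.5 was −1.89 at E15.5 and −0.98 at P7, then −0.56 at P14, −1.40 at P21 and −2.05 for adults. For the 5010 falls called without replicate 2 it was larger at each stage, at −2.06, −1.39, −1.09, −1.96 and −2.59 in that order.

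How many falls were kept depended on replicate 2. Without it, 3043 of 5010 (60.7%) were kept at P7 and 804 (16.0%) back, against 11.5% of all probes called lower at P7. At P14 2328 (46.5%) were kept and 1624 (32.4%) back (background 15%), at P21 3609 (72.0%) and 792 (15.8%, background 25.9%), and in the adult 3801 (75.9%) and 552 (11%, background 34%). Higher than E15.5 in that fit were 9.06%, 16.4%, 19.9% and 22.3% of all probes. Without E12.5 replicate 1 or 3 the falls kept at P7 numbered 538 or 536, and those kept in the adult 1276 or 1283. Among the 3454 falls called in both fits, the number kept at P7 was 1062 (30.7%) with replicate 2 and 2231 (64.6%) without it, so the difference did not rest on the added probes alone. P14 had the largest share back among the 4 later stages in both fits.

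**Figure D3:**
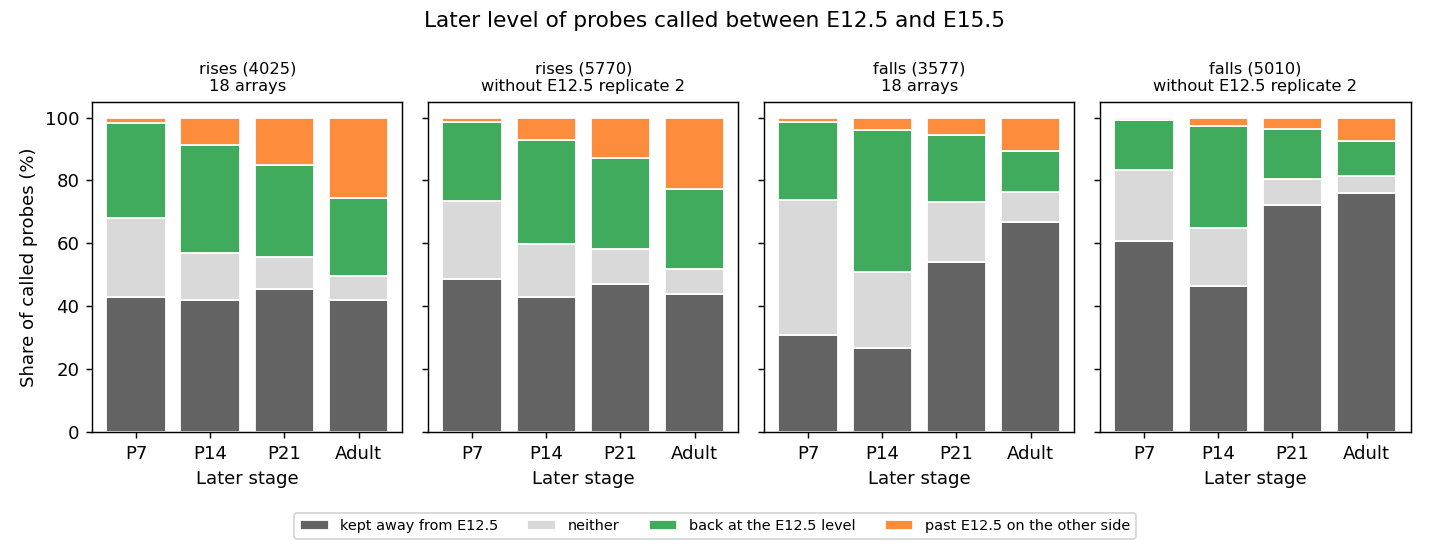
Share of called probes (vertical axis, percent) in each later state at P7, P14, P21 and adult (horizontal axis), for rises and falls with 18 arrays and without E12.5 replicate 2. Among falls the kept share at P7 is 30.8% with replicate 2 and 60.7% without it, and the back share is highest at P14 in both.

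Single postnatal arrays also moved these counts. For the 3577 falls the median signal was 8.84, 8.22 and 8.10 in P7 replicates 1, 2 and 3, and without P7 replicate 1 the falls back at P7 numbered 569 instead of 896. Falls kept at P7 numbered 676 without P7 replicate 2 and 687 without replicate 3, instead of 1102. At P21 the medians were 8.60, 7.67 and 7.89, with replicate 1 again the highest, and at P14 they were 8.85, 8.80 and 8.85. The adult arrays stood at 7.42, 7.60 and 7.60. The P14 arrays thus lay close together and above every adult array.

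Return at every later stage was seen for a small share of the called probes. Of the rises, 185 (4.60%) were back at all 4 later stages and 741 (18.4%) were kept at all 4. Of the falls, 92 (2.57%) were back and 508 (14.2%) kept throughout. Without replicate 2 the numbers were 260 (4.51%) and 1253 (21.7%) for rises and 94 (1.88%) and 1749 (34.9%) for falls. Falls kept throughout were 257 without E12.5 replicate 1 and 252 without replicate 3, and falls back throughout 59 without P7 replicate 1. Back at P14, P21 and adult, whatever their state at P7, were 339 rises (8.42%) and 212 falls (5.93%), or 516 (8.94%) and 243 (4.85%) without replicate 2. At least 1 return was seen for 2643 rises (65.7%) and 2083 falls (58.2%), or 3552 (61.6%) and 2144 (42.8%) without replicate 2.

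Probes back at P7 were followed further. Of the 1219 rises back at P7, 644 (52.8%) were still back at P14 and 313 (25.7%) in the adult. In the adult 421 of them (34.5%) were again above E12.5 and 416 (34.1%) below it, while of all probes 23.9% were called above and 34.1% below. Of the 896 falls back at P7, 661 (73.8%) were back at P14 and 171 (19.1%) in the adult, where 550 (61.4%) were again below E12.5, against the same 34.1% of all probes. Without replicate 2, 419 of 1450 such rises (28.9%) and 170 of 804 such falls (21.1%) were back in the adult, and 494 of the falls (61.4%) were below E12.5. With 18 arrays, the most frequent courses among rises, after being kept throughout, were a return at P7 followed by a higher level at all 3 later stages (187 probes) and a return at all 4 (185). Among falls they were a level neither back nor kept at P7 and P14 and kept at P21 and adult (297 probes), and a return at P7 and P14 with a lower level at P21 and adult (264). The order differed without replicate 2. There the next rises were back at all 4 stages (260) or kept until a return in the adult (255), and the next falls were kept except at P14, where they were back (298) or neither (298).

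In the fit of 18 arrays, the 741 rises that were kept throughout stood higher at P21 and in the adult than at E15.5. Their median signal was 6.51, 7.14 and 6.45 in the E12.5 arrays, 9.31, 8.90 and 9.14 at E15.5, and 9.06, 9.05 and 9.11 at P7. In the P14 arrays it was 9.55, 9.57 and 9.44, in those of P21 10.05, 10.62 and 10.46, and for adults 10.07, 9.93 and 9.94. The 508 falls kept throughout stood lower still in the adult. They went from 10.53, 9.11 and 10.57 at E12.5 and 7.97, 7.68 and 7.71 at E15.5 to 6.19, 6.28 and 6.24 in the adult. For the 185 rises that returned throughout, signal was 9.15, 8.78 and 8.98 at E15.5 and between 6.46 and 7.20 in every later array. E12.5 replicates 1 and 3 stood at 6.63 and 6.67, and E12.5 replicate 2, at 7.40, was above all of those later arrays. The 92 falls that returned throughout stood at 10.01, 8.65 and 9.98 at E12.5 and 7.63, 7.27 and 7.29 at E15.5. In the later arrays they stood between 8.96 and 10.15. The same arrays defined these classes, so the return or the lasting difference from E12.5 is set by the choice of probes.

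Steep rises were mostly kept at P7, and the course of steep falls depended on replicate 2. Of the 428 rises of at least 8-fold, 321 (75%) were kept at P7 and 83 (19.4%) back, compared with 971 (34.8%) and 834 (29.9%) of the 2787 rises of 2-fold to 4-fold. Without replicate 2 the kept shares were 80.6% and 40.0%. Of the 640 falls of at least 8-fold, 190 (29.7%) were kept at P7, close to the 30.4% of falls of 2-fold to 4-fold, and 412 (64.4%) were back at P14. Without replicate 2, 1061 of 1286 such falls (82.5%) were kept at P7 and 383 (29.8%) were back at P14. A larger change must pass through a larger distance to count as back, so sizes are described side by side and were not tested.

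The kept share of falls was higher where replicate 2 was nearer to E15.5 than where it was nearer to E12.5. In the fit without that array, 2487 of 3791 (65.6%) of the former and 556 of 1219 (45.6%) of the latter were kept at P7, and 451 (11.9%) and 353 (29.0%) were back. In the adult 2983 (78.7%) and 818 (67.1%) were kept. The array that sets these sides had no part in the fit, and the difference was not tested. For rises the kept shares at P7 were 1589 of 3278 (48.5%) and 1223 of 2492 (49.1%). The changes that hold on both counts, called in both fits and with replicate 2 nearer to the other E12.5 arrays, numbered 2331 rises and 1154 falls.

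The 4 courses are illustrated by 1 probe each, named in the text by a rule on the size of the change. ASMM9PARTA013872 had the largest rise among 178 probes that rose in both fits without overlap and were back at all 4 later stages. Its log2 signal was 4.40, 4.72 and 4.16 in E12.5 replicates 1, 2 and 3 and 10.42, 9.60 and 10.18 at E15.5. It rose by 5.64 (SE 0.31, adjusted p = 4.80e-09, limma), and by 5.79 without replicate 2. All 12 later arrays lay between 4.27 and 5.77, so that the signal was high at E15.5 alone among the 6 stages, and otherwise among the dimmest 25% of probe means. Its mean was 4.87 ± 0.15 at P7 and 4.40 ± 0.22 in the adult (SD, n = 3).

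ASMM9PARTA006316 had the largest rise among 711 such probes kept at all 4 later stages. It stood at 6.35, 8.20 and 6.45 at E12.5, with replicate 2 the highest, and at 14.01, 13.96 and 13.99 at E15.5. The rise was 6.98 (SE 0.43, adjusted p = 1.56e-08, limma), and 7.58 (SE 0.34, adjusted p = 1.17e-09) without replicate 2. The level then declined in steps but stayed above E12.5, with a P7 mean of 11.42 ± 0.16, a P14 mean of 10.10 ± 0.06, a P21 mean of 9.82 ± 0.88 and an adult mean of 9.66 ± 0.21 (SD, n = 3). P21 replicate 1 was lowest of its stage at 8.83, and replicates 2 and 3 stood at 10.49 and 10.16.

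ASMM9PARTA027317 had the largest fall among 88 probes that fell in both fits without overlap and were back throughout. It stood at 8.12, 6.88 and 8.24 at E12.5 and at 4.46, 2.77 and 3.91 at E15.5, where the value of replicate 2 was the lowest of any probe on that array. The fall was −4.03 (SE 0.51, adjusted p = 3.99e-05, limma), and −4.47 without E12.5 replicate 2. At P7 the mean was 7.80 ± 0.35 and at P14 8.50 ± 0.08 (SD, n = 3). Means at P21 and adult were 7.10 ± 1.07 and 7.13 ± 0.49, and without E12.5 replicate 2 they lay −1.08 and −1.05 from the E12.5 level, just outside the limit for being back.

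ASMM9PARTA037680 had the largest fall among 433 such probes kept throughout. It stood at 11.57, 9.65 and 11.61 at E12.5, with replicate 2 the lowest, and at 5.43, 5.43 and 5.34 at E15.5. The fall was −5.54 (SE 0.46, adjusted p = 5.03e-07, limma), and −6.19 without replicate 2. The P7 and adult means, 6.37 ± 0.77 and 6.39 ± 0.46, were the lowest of the later ones, and those of P14 and P21 were 8.45 ± 0.38 and 7.25 ± 0.17 (SD, n = 3). The P14 mean was 3.05 above E15.5 (adjusted p = 7.95e-05, limma), a partial recovery that was −2.50 from E12.5 (adjusted p = 0.000536).

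**Figure D4:**
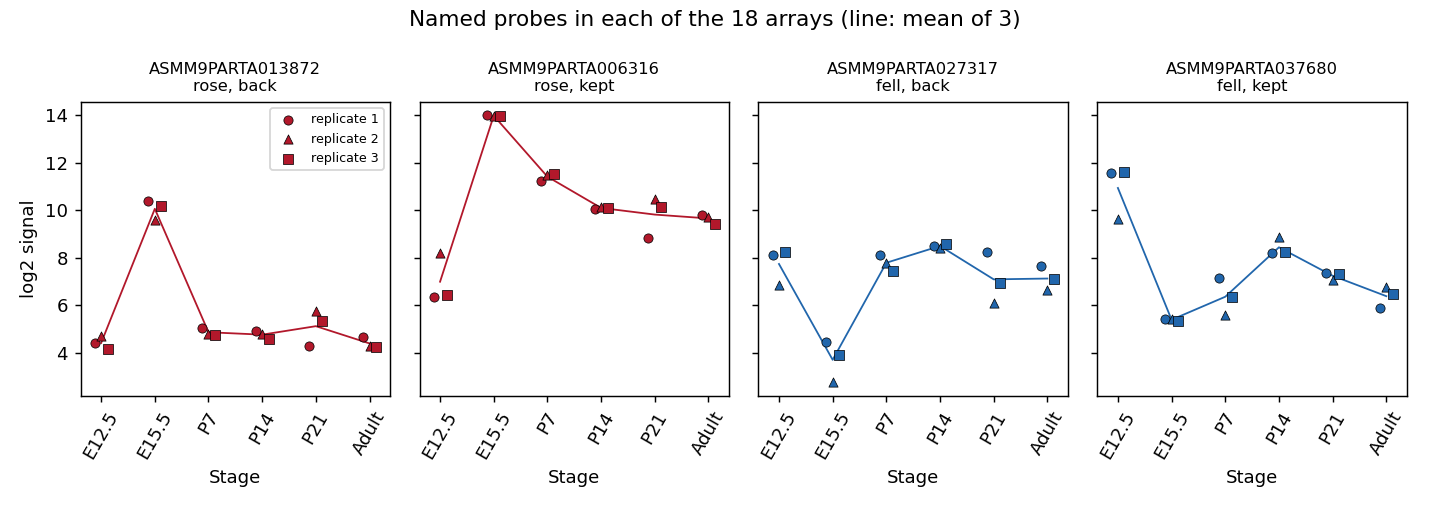
Log2 signal (vertical axis) of the 4 named probes in each array at the 6 stages (horizontal axis), with symbols for replicates and lines through the means of 3. ASMM9PARTA013872 is high at E15.5 alone, ASMM9PARTA006316 stays above its E12.5 level, ASMM9PARTA027317 is low at E15.5 and back at P7, and ASMM9PARTA037680 stays below its E12.5 level.

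The share called differed between families of probe identifiers, and these differences were not tested. Of 34232 probes named ASMM9PARTA, 3767 rose and 3428 fell, 21.0% in all, beside 20.1% of all probes. CUST probes were called at a like rate, with 70 rises and 52 falls among 527 (23.1%). Probes named by a sequence record had 44 rises and 27 falls among 581 (12.2%). Without replicate 2 the shares called were 29.7%, 30.4% and 18.4%, beside 28.5% of all probes.

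The lincRNA identifiers, for long intergenic noncoding RNAs, fall into 3 kinds that behaved unequally. Among 1840 probes named MM9LINCRNAEXON 132 rose and 70 fell (11% called), and 127 or 125 were called without E12.5 replicate 1 or 3. Among 394 named humanlincRNA 9 rose and 0 fell, and among 246 named mouselincRNA 3 rose and 0 fell, 2.28% and 1.22% called. At an unadjusted p below 0.05 in limma, 19 humanlincRNA probes were higher and 3 lower at E15.5, and 15 and 2 mouselincRNA probes. Of all 37820 probes 7620 were higher and 5907 lower at that cut. At the same cut without replicate 2, 44 humanlincRNA probes were higher and 2 lower, and 31 and 0 mouselincRNA probes. Of all probes 10058 were higher and 6878 lower in that fit. Some unchanged probes pass this cut by chance, and whether either small kind rose was not tested. The counts called without replicate 2 were 214 rises and 93 falls in the first kind, 17 and 0, and 10 and 0. Quantile normalization of the 18 arrays gave 134 and 74, 8 and 0, and 3 and 0, so rises outnumbered falls in each kind under that scaling as well. Among ASMM9PARTA probes the same scaling gave 3701 rises and 3716 falls, which turned their balance, and centring on array medians gave 3571 and 3548.

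The last 2 kinds were dim, with median E12.5 signals of 6.32 and 6.30, against 7.10 for MM9LINCRNAEXON and 8.07 for ASMM9PARTA. Whether the prefix human marks transcripts matched from human is not given in the sources used here. In each of 5 groups of probes of like brightness the share of lincRNA probes called was below that of all probes, a description without a test. In the brightest group 12.3% of 203 lincRNA probes were called and 17.8% of all probes, and in the second brightest 11.7% of 341 and 27.5%. From the dimmest group up, lincRNA rises and falls numbered 22 and 15, then 33 and 23, then 39 and 17. In the second brightest group they numbered 32 and 8, and in the brightest 18 and 7. All probes gave 544 and 403, 710 and 754, 913 and 854, 1116 and 962, and 742 and 604 in that order. Without replicate 2 the lincRNA counts were 43 and 21, 49 and 32, 60 and 20, 61 and 12, and 28 and 8.

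Later courses of the lincRNA changes were counted as well. Of the 132 MM9LINCRNAEXON rises 32 (24.2%) were back at P7 and 61 (46.2%) kept, beside 30.3% and 42.9% of all rises. Of the 70 falls 17 (24.3%) were back and 27 (38.6%) kept, beside 25% and 30.8% of all falls. Without replicate 2, 43 (20.1%) and 112 (52.3%) of 214 rises and 16 (17.2%) and 60 (64.5%) of 93 falls were back and kept, beside 25.1%, 48.7%, 16.0% and 60.7% of all rises and falls. These shares lie near those of all called probes. The lincRNA numbers with a probe on each strand gave 625 pairs. Neither strand was called in 528 of them and a single strand in 93. In the remaining 4 both strands were called in the same direction. Without replicate 2 both strands were called in 14 pairs, 10 in the same and 4 in opposite directions.

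**Figure D5:**
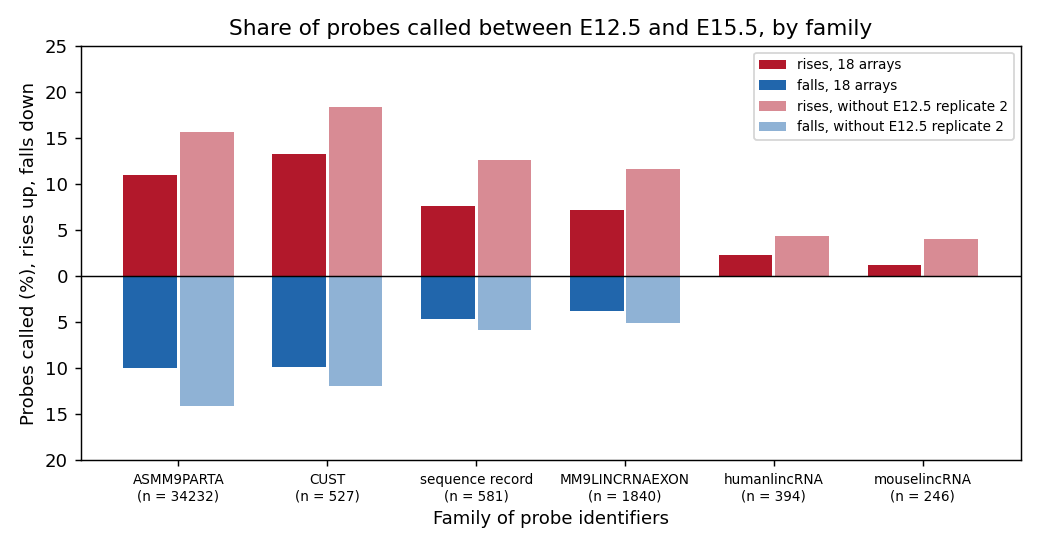
Share of probes called between E12.5 and E15.5 (vertical axis, percent, rises upward and falls downward) for 6 families of identifiers (horizontal axis), with 18 arrays and, in paler bars, without E12.5 replicate 2. ASMM9PARTA and CUST probes are called at 21.0% and 23.1% and the humanlincRNA and mouselincRNA probes at 2.28% and 1.22%, with no falls in the last 2.

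Calls were most frequent at intermediate brightness. In 5 groups of 7564 probes ranked by mean signal over all arrays, the share called was 12.5% in the dimmest, then 19.4%, 23.4% and 27.5%, and 17.8% in the brightest. Without replicate 2 these shares were 18.7%, 27.1%, 32.6%, 37.7% and 26.4%. Rises outnumbered falls in 4 of the 5, the exception being the second dimmest with 710 and 754. Of the rises 1384 (34.4%) started, and of the falls 1324 (37.0%) ended, below a mean signal of 6.53, the limit of the dimmest 25% of probes. No detection flags were used here, and a level at background gives too small a change.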

How the data were processed

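Per the labels, RNA of whole testis was hybridised alone to 1-colour Cy3 arrays, and the submitters' processing notes name Agilent's Feature Extraction, version 11.0.1.1. The authors deposited 1 value per probe and array, taken as log2 from its range. The sources used here do not give the log base, the normalization or the probe filter, and no depth in reads applies.

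The deposited values were fitted with limma 3.58.1 in R 4.3.3 (1 mean per stage, 18 arrays, lmFit and eBayes, 12 residual degrees of freedom per probe and 3.20 from the prior). The procedure was first run on simulated data with known changes. No simulated array stood apart from its stage, so that run did not test the effect of E12.5 replicate 2. The members, lists and rules were chosen with earlier results of these data known. The named probes were the largest rise and the largest fall, among probes called in both fits without overlap, back at all 4 later stages or kept at all 4. The gene lists and cell type markers planned for the case that probes had gene names were not run. Alternatives changed the arrays fitted, their weights, the replicate block, prior, scaling, filter and call rule. Figures used matplotlib 3.10.9.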

Additional observations from a re-analysis of the deposited data

How the results depend on the processing

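The 33 results, counts and the changes of the 4 named probes, were recomputed under the alternatives, giving 981 values. Of the counts, 727 of 862 values stayed within 1.5 times the reported one. That tally includes leaving out single arrays of P7 and later, which kept the number called between 7282 and 8133. The share therefore does not show how far the counts depend on E12.5 replicate 2. The named probes kept their direction and call in all 119 of theirs. They were chosen as the largest changes called in both fits without overlap, which made this likely in advance and says little about other probes. The number called, 7602, was 12343 with limma's array weights (6753 rises, 5590 falls), 7841 with the replicate block and 1807 when limma's treat tested against a 2-fold change (1083 and 724). Falls numbered 2175 with only the 6 arrays of E12.5 and E15.5 fitted, 2131 with E12.5 replicates 1 and 3 averaged and 2273 at an adjusted p below 0.01. Leaving out single arrays gave 5068 to 10780 called, 2943 to 5770 rises and 2125 to 5010 falls. The lower ends came without E12.5 replicate 1, near the 2138 falls without replicate 3, and the upper ends without replicate 2. Rises back at P7 ranged from 925 to 1450 and falls back from 569 to 1056, and kept at all 4 stages from 532 to 1253 and from 252 to 1749. With treat, 189 rises and 136 falls were back at P7 and 196 and 51 kept throughout. With array weights 1446 and 2233 were kept, without both E12.5 replicate 2 and P21 replicate 1 1296 and 2068, and 255 falls with replicates 1 and 3 averaged. At an adjusted p below 0.01, 548 falls were back and 254 kept. With no minimum change 1858 rises were back, with a limit of 0.5 from E12.5 572 falls, and with no call against E15.5 required 2098 rises and 1767 falls. Beyond the arrays left out and the stricter rules, the cause of these shifts was not tested. Leaving out arrays of P7 and later was chosen after seeing the data. Deviations from the stage means of same-numbered arrays correlated at 0.16, 0.16 and −0.01, and those of arrays with unlike numbers at −0.17 to 0.16. With so few arrays per stage this cannot tell whether replicate numbers pair the arrays, and the main fit used no pairing. The fit of 6 arrays gives no later-stage counts, and ASMM9PARTA013872 is not among the probes left by the filter on dim ones. The number of arrays and the lack of detection flags limit what small or dim changes can show.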
